A study of Agaricus bisporus with 12 samples.

Results

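The 4 genes described here are a pair of tyrosinases and a pair of lectins named XCL-like, out of 9502 genes of the button mushroom Agaricus bisporus that had a read in any library. They were picked by gene number, as mushroom-associated genes to be followed in the compost below, and were chosen by their levels in these libraries, so their levels and stage-to-stage differences are a description without a test. In the files gene 135027's and gene 191507's best KEGG match is tyrosinase (K00505), at an E-value of 3e-88 for the first and 8e-107 for the second. In the same files gene 75698's and gene 194894's best protein match is named XCL-like lectin. The genes are called tyrosinase-135027, tyrosinase-191507, lectin-75698 and lectin-194894 below.

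Tyrosinases are copper enzymes that oxidise phenols to quinones, which go on to form melanin. In the button mushroom they are known for the browning of bruised and ageing caps. XCL-like lectins are named after the sugar-binding protein of the bolete Xerocomus chrysenteron, a fruiting body protein toxic to insects. They belong to the same fungal lectin family as ABL, the abundant lectin of the button mushroom itself.

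All 12 libraries were made from RNA of compost, not of picked mushrooms, and all came from the commercial heterokaryon A15 growing on composted wheat straw with horse and chicken manure. There were 6 stages with 2 libraries each, namely spawning (compost grown through for 16 days at 25 °C), pinning (when mushroom initials appear), and then the first and the second flush of mushrooms, each followed by a stage after it. The later stages were sampled beneath a casing layer of peat and lime, and the labels give no day for them. Library totals were 7.27 M to 9.34 M uniquely placed reads (M, mega), and Pearson r between both libraries of a stage was 0.977 to 0.994 over 8814 genes in log2(CPM + 1), where CPM is counts scaled to a common library size. Nothing in the labels says that a stage's libraries are separate beds or compost lots, and the spread between them could be technical. In the codes of its libraries the first flush has a letter that the other 10 libraries lack, and a batch and that stage cannot be told apart. In RNA of whole compost, fewer cells using a gene and less RNA of it per cell cannot be told apart either.

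Levels are in RPKM, the reads of a gene scaled to its length and to the library total, and are given as mean ± SD with n = 2 libraries. Log2 changes and their SE come from an edgeR model of the read counts over all 12 libraries.

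Both tyrosinases were high in the first flush and lower after each flush than in it, and the lectins were highest at pinning and low in the first flush. Tyrosinase-135027 stood at 16.5 ± 4.01 RPKM after second flush, its lowest stage, and at 268 ± 13.2 RPKM in the first flush, its highest. Tyrosinase-191507 was at 5.25 ± 1.70 RPKM at spawning, 148 ± 71.4 RPKM in the first flush and 148 ± 25.7 RPKM in the second. Lectin-75698 stood at 170 ± 46.6 RPKM at pinning and at 4.14 ± 1.86 RPKM at spawning. Lectin-194894 had 70.2 ± 8.27 RPKM in the first flush, where it ranked 2163rd of all genes by mean level, and 1419 ± 359 RPKM at pinning, where it ranked 62nd. Between its highest and lowest stage mean, tyrosinase-135027 spanned 16.2-fold, tyrosinase-191507 28.3-fold, lectin-75698 41.1-fold and lectin-194894 20.2-fold, against a median of 2.58-fold over all tested genes.

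**Figure D1:**
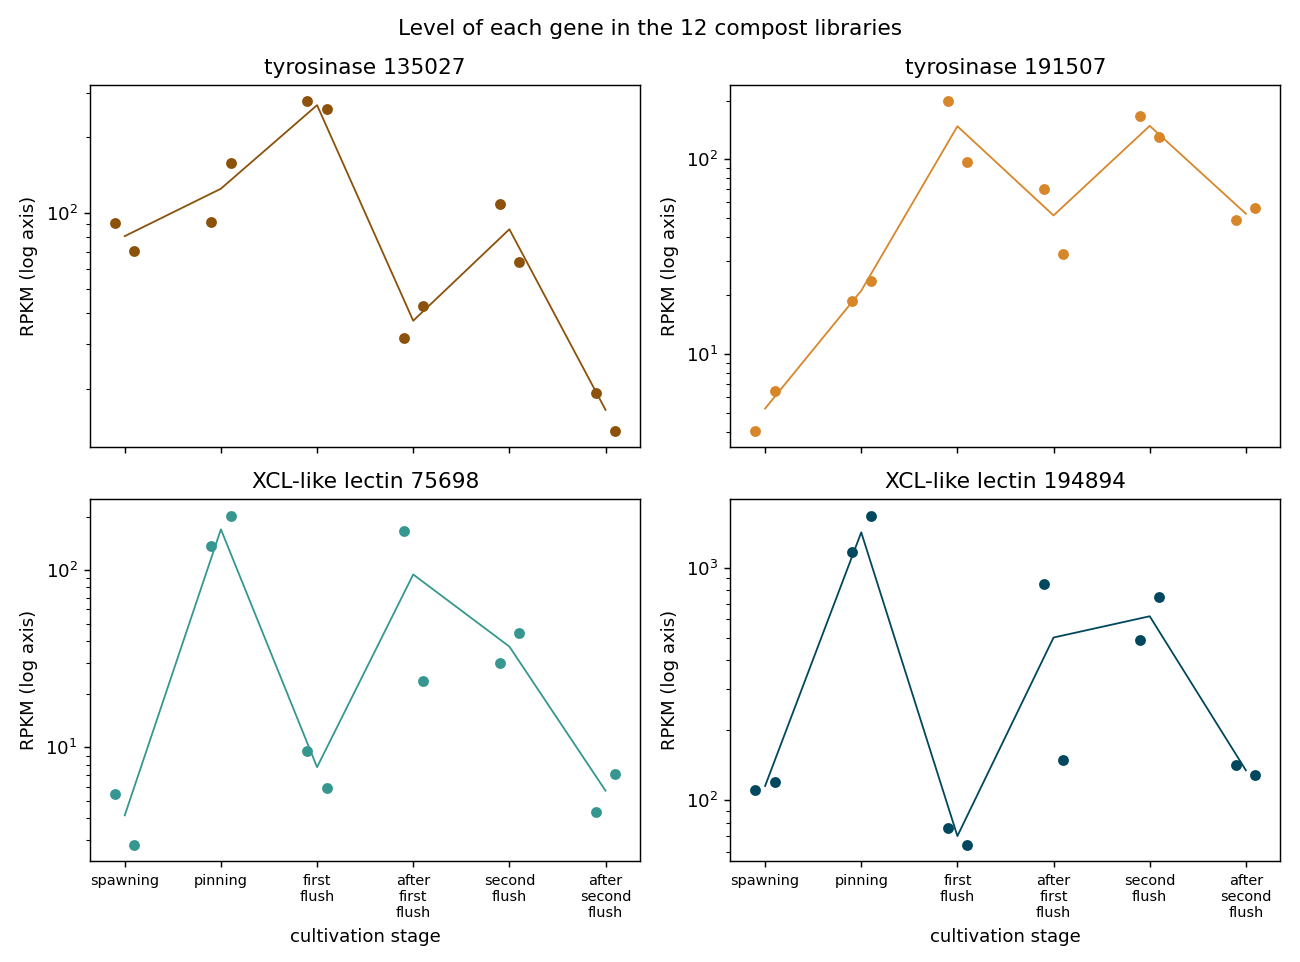
RPKM (log axis) of each of the 4 genes in the 12 compost libraries, by cultivation stage; points are single libraries and the line joins the means of the 2 libraries of a stage. The tyrosinases peak in a flush, tyrosinase-135027 at 268 RPKM in the first, while both lectins peak at pinning and are low in the first flush.

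At spawning tyrosinase-135027 had 90.9 and 70.6 RPKM, at pinning 92.1 and 157 RPKM, and 277 and 258 RPKM in the first flush. It had 31.7 and 42.8 RPKM after first flush, 108 and 63.8 RPKM in the second flush, and 19.3 and 13.6 RPKM after second flush. Both first flush libraries were above all 10 others, as in 19.9% of all tested genes. In the order of stage means, pinning and second flush overlapped in their libraries, as did second flush and spawning, and the other neighbours were apart. The second flush stood below the first, at 86.0 ± 31.3 RPKM against 268 ± 13.2 RPKM (log2 change -1.55, SE 0.30).

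Step by step, tyrosinase-135027 was 0.49 log2 units higher at pinning than at spawning (SE 0.29, and 0.068 to 0.827 over the left-out libraries), 0.88 higher in the first flush than at pinning (SE 0.29), and lower after first flush than in it (-2.87, SE 0.31). It was higher again in the second flush than after first flush (1.32, SE 0.30) and lower after second flush (-2.42, SE 0.31). The change after the second minus the change after the first was 0.45 (SE 0.42).

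Tyrosinase-191507 had 4.05 and 6.45 RPKM at spawning, resting on 62 and 101 reads, 18.7 and 23.6 RPKM at pinning, and 198 and 97.2 RPKM in the first flush. After first flush it had 70.2 and 32.8 RPKM, in the second flush 167 and 130 RPKM, and after second flush 48.8 and 56.2 RPKM. The 4 flush libraries were above all 8 others (1.09% of all tested genes), and the spawning libraries were below all others (34.1%). Flush overlapped with flush and after-flush with after-flush, and the remaining neighbours in the order did not overlap.

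Tyrosinase-135027 stood lower in the second flush than in the first, but the log2 change of tyrosinase-191507 between the flushes was 0.11 (SE 0.41), a difference whose sign turned when first flush replicate 2 or second flush replicate 1 was left out (-0.30 to 0.69 over the left-out libraries). Its step to pinning was 1.87 (SE 0.48) and its step to the first flush 2.58 (SE 0.44). It was lower after first flush than in the flush (-1.54, SE 0.42), higher in the second flush than after the first (1.65, SE 0.42) and lower again after second flush (-1.54, SE 0.42).

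The balance within the tyrosinase pair shifted toward tyrosinase-191507 along cultivation. The level of tyrosinase-191507 divided by that of tyrosinase-135027 was 0.0446 and 0.0914 at spawning, 0.203 and 0.150 at pinning, and 0.716 and 0.377 in the first flush. The ratio was 2.22 and 0.766 after first flush, 1.54 and 2.04 in the second flush, and 2.53 and 4.12 after second flush. Tyrosinase-135027 was the higher of the pair in all 6 libraries up to the first flush, and tyrosinase-191507 in 5 of the 6 later ones, the exception being after first flush replicate 2. Both pinning libraries lay above both spawning libraries in this ratio and both first flush libraries above both pinning libraries, while the libraries of after first flush lay on either side of those of the second flush. Both after second flush libraries had a higher ratio than any other library.

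**Figure D2:**
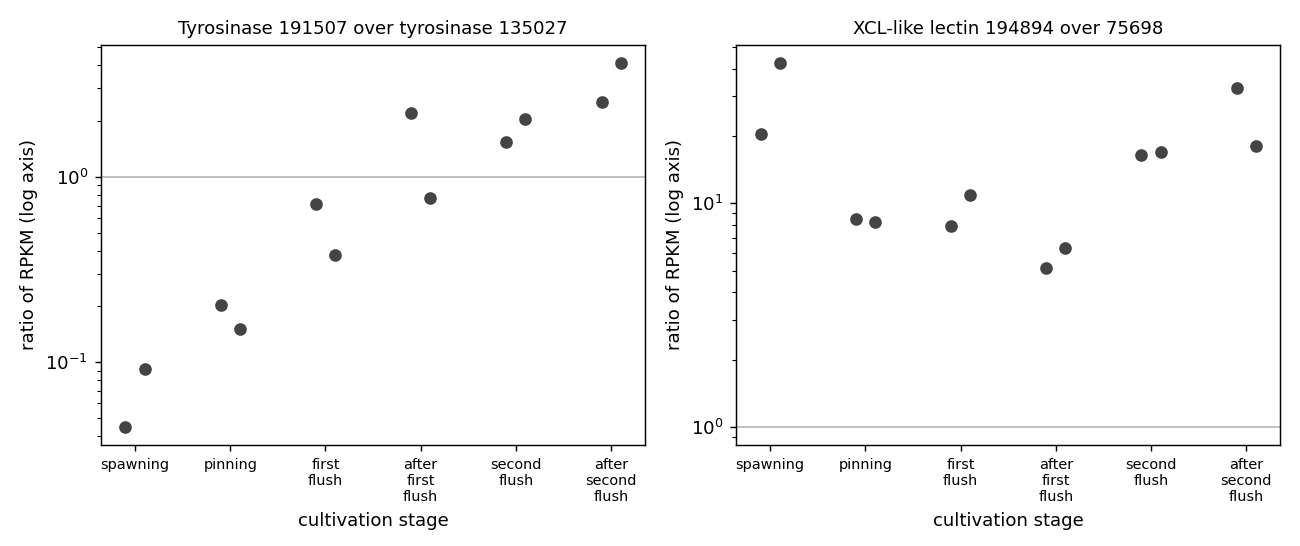
RPKM of tyrosinase-191507 over tyrosinase-135027 (left) and of lectin-194894 over lectin-75698 (right) in each of the 12 libraries (points), by stage, on log axes; the grey line marks a ratio of 1. The tyrosinase ratio runs between 0.0446 at spawning and 4.12 after second flush, while the lectin ratio is above 1 in every library.

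Lectin-75698, the shorter of the XCL-like pair by gene length (429 against 597 bases), had 5.45 and 2.82 RPKM at spawning, 137 and 203 RPKM at pinning, and 9.59 and 5.88 RPKM in the first flush. It had 165 and 23.6 RPKM after first flush, 29.9 and 44.2 RPKM in the second flush, and 4.32 and 7.08 RPKM after second flush. The spawning values rest on 17 and 9 reads, and for the lower one the exact Poisson 95% interval, which covers counting error only, runs from 1.29 to 5.36 RPKM. The libraries of after second flush overlapped with those of spawning and with those of the first flush. The lower first flush library and the higher spawning library were close, and their Poisson 95% intervals overlapped (3.73 to 8.83 and 3.18 to 8.73 RPKM). Among the higher stages, pinning overlapped with after first flush and after first flush with second flush.

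Lectin-194894 had 111 and 120 RPKM at spawning, 1164 and 1673 RPKM at pinning, and 76.0 and 64.3 RPKM in the first flush. It had 853 and 148 RPKM after first flush, 490 and 747 RPKM in the second flush, and 141 and 128 RPKM after second flush. Both pinning libraries were above all 10 others (3.1% of all tested genes) and both first flush libraries below all others (10.6%). Only second flush and after first flush overlapped among neighbours in its order.

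From spawning to pinning the lectins made the largest steps of the 4 genes, with log2 changes of 5.22 (SE 1.02) for lectin-75698 and 3.49 (SE 0.74) for lectin-194894. At first flush, set against pinning, both stood lower, at -4.67 (SE 0.92) for lectin-75698 and -4.56 (SE 0.78) for lectin-194894. The tyrosinases stood higher at that same step. At the first flush the lectin pair together had 85.6 and 70.2 RPKM and the tyrosinase pair 475 and 355 RPKM. At pinning the order was the reverse, with 1301 and 1876 RPKM for the lectin pair and 111 and 181 RPKM for the tyrosinase pair.

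**Figure D3:**
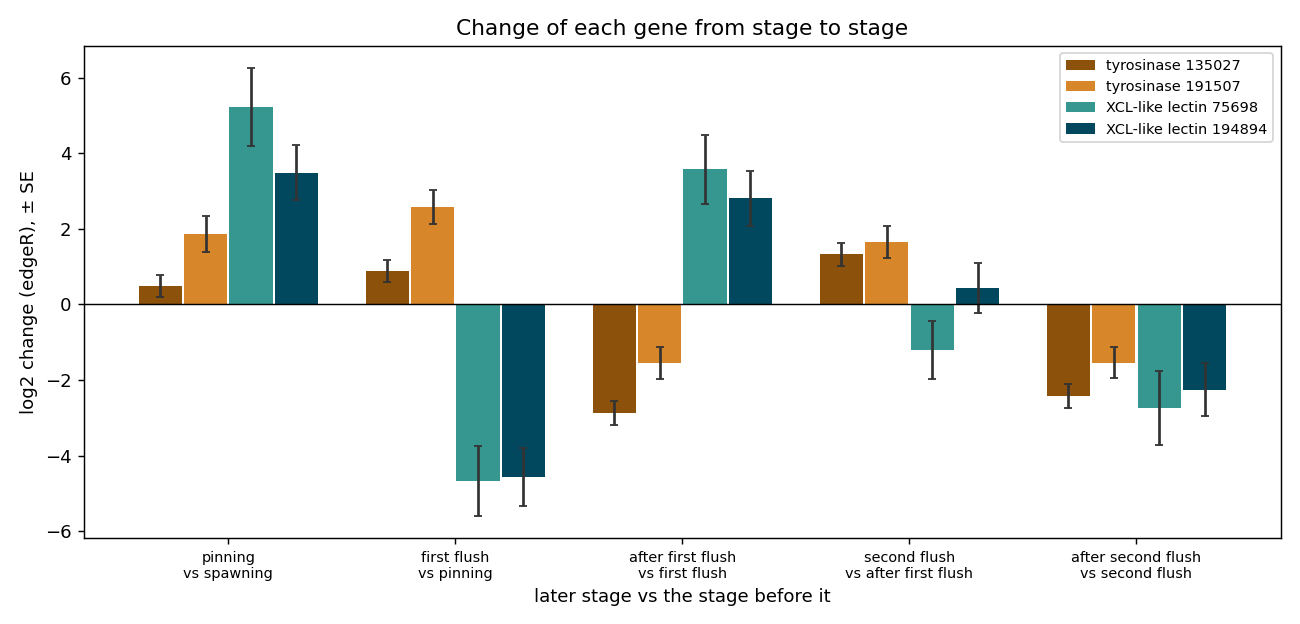
Log2 change of each of the 4 genes (edgeR; bars, with SE as error bars) at each of the 5 steps, the later stage against the one before it. The lectins reach 5.22 and 3.49 at pinning and go below -4.5 at first flush, where both tyrosinases are higher, and all 4 genes are lower after second flush than in it.

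The flushes differed for the lectins. In the second flush lectin-194894 had 618 ± 182 RPKM, against 70.2 ± 8.27 RPKM in the first (log2 change 3.25, SE 0.73), and lectin-75698 had 37.1 ± 10.1 RPKM, against 7.74 ± 2.62 RPKM (2.36, SE 0.93). For both genes the libraries of the second flush lay above those of the first, as they did in 31.7% of all tested genes. In the second flush the lectin pair had 520 and 791 RPKM and the tyrosinase pair 275 and 194 RPKM.

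After first flush both lectins were higher than in the flush, and after second flush both were lower than in the flush, with no overlap of libraries at either step. Of all tested genes 37.9% lay wholly higher after first flush, 22.8% wholly lower after second flush and 9.39% did both. Lectin-75698 differed by 3.57 (SE 0.91) after first flush and by -2.74 (SE 0.97) after second flush, and lectin-194894 by 2.81 (SE 0.72) and by -2.26 (SE 0.70).

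The lectin levels after first flush rest mainly on replicate 1, where lectin-194894 was 5.75-fold and lectin-75698 7.01-fold above replicate 2. Of the tested genes, 0.635% stood at least as far apart as lectin-194894 between these libraries and 0.511% as far as lectin-75698. Without replicate 1 the log2 changes after first flush were 1.06 for lectin-194894 and 1.58 for lectin-75698, and without replicate 2 they were 3.57 and 4.38. The tyrosinases differed less there, by 1.35-fold for tyrosinase-135027, with replicate 2 the higher, and by 2.14-fold for tyrosinase-191507, with replicate 1 the higher. The step to the second flush could not be given a direction for either lectin. For lectin-75698 it was -1.21 (SE 0.77), and 0.78 without replicate 1 of after first flush. For lectin-194894 it was 0.44 (SE 0.67), and -0.32 without replicate 2.

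Lectin-194894 was the more abundant of its pair in every library. Its level divided by that of lectin-75698 was 20.3 and 42.4 at spawning, 8.50 and 8.25 at pinning, 7.92 and 10.9 in the first flush, 5.16 and 6.29 after first flush, 16.4 and 16.9 in the second flush, and 32.7 and 18.1 after second flush. The after first flush libraries, far apart in level, were close in this ratio. The 4 highest ratios were those of spawning and after second flush, where lectin-75698 had 9 to 28 reads per library.

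Over the 12 libraries the lectins followed each other closely in log2(CPM + 1), with Pearson r = 0.92 and Spearman rho = 0.75. The libraries come in pairs from 6 stages and share their depth with all genes, so this is a description and no test. Only 0.053% of the other genes with a mean of at least 5 CPM had as high an r with lectin-75698. The tyrosinases did not follow each other (r = 0.056, rho = 0.133), and between a tyrosinase and a lectin r lay between -0.017 and 0.096.

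**Figure D4:**
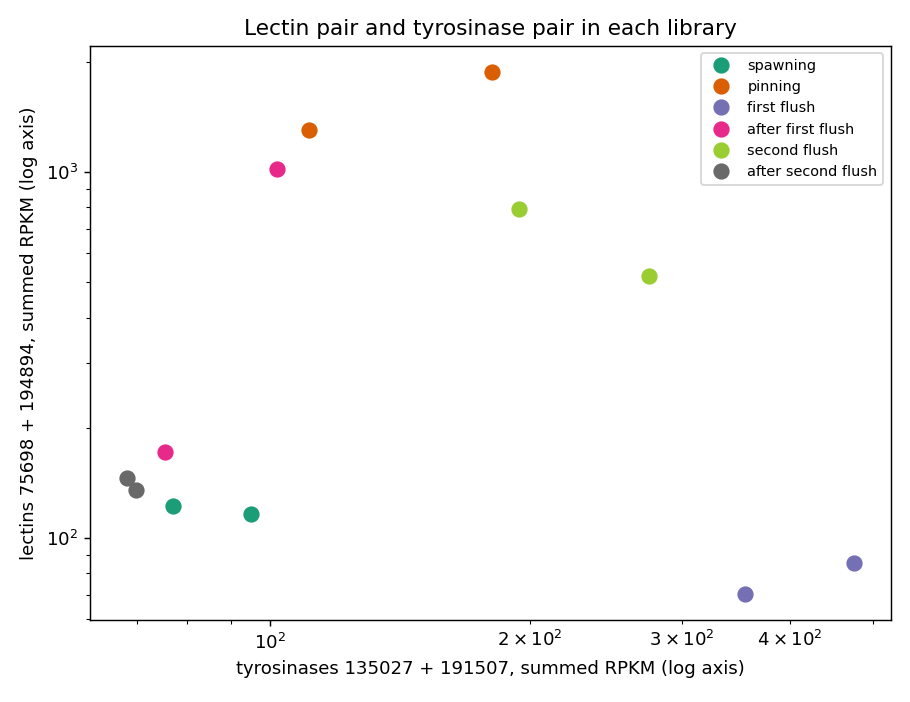
Summed RPKM of the lectin pair (vertical, log axis) against the summed RPKM of the tyrosinase pair (horizontal, log axis) in each of the 12 libraries (points), coloured by stage. Pinning libraries lie high with 1301 and 1876 RPKM of lectin, first flush libraries lie far right and low, and the libraries of the second flush are high in both.

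The deposited coverage, the share of a gene's length touched by reads, comes from the same reads as the levels. It falls when reads are few and is no separate evidence of low levels. Tyrosinase-191507 was covered over 61.65% and 72% of its length at spawning and over at least 91.74% in every later library. Lectin-194894 was covered over at least 99.33% in every library. Lectin-75698 was covered over 55.71% to 91.38% in the 6 libraries of spawning, first flush and after second flush, and over 87.88% to 99.07% in the others.

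Among the 7527 genes with a mean of at least 5 CPM, tyrosinase-135027 was most like an uncharacterised gene (137282, r = 0.96), followed by uncharacterised gene 119949 (0.94), an esterase or lipase (194604, 0.91), uncharacterised gene 195403 (0.91) and a gene annotated as the F-box protein CDC4 (176395, 0.91). Tyrosinase-191507 was most like uncharacterised gene 118651 (0.94), the nuclear export receptor exportin-1 (190804, 0.94), uncharacterised gene 179131 (0.93), an amino acid transporter (179516, 0.93) and essential nuclear protein 1, a ribosome assembly factor (150095, 0.93). Exportin-1 had 66.0 RPKM at spawning and 128 and 135 RPKM in the first and second flush, a far narrower span than that of the tyrosinase.

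Lectin-75698 was most like the transcription elongation factor SPT4 (191648, r = 0.96), uncharacterised gene 191509 (0.95), a subunit of the transcription mediator (67575, 0.93), uncharacterised gene 190134 (0.93) and ribosomal protein S5e (227781, 0.92). Lectin-194894 was most like sulfite oxidase (134661, 0.96), uncharacterised genes 228737 (0.95), 214531 (0.93) and 191000 (0.93), and a gene annotated as the anti-proliferation factor Tob/BTG (191073, 0.93). The likeness is one of pattern and not of size, since SPT4 had 215 RPKM at pinning and 91.0 RPKM at spawning, against 170 and 4.14 RPKM for the lectin.

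The files annotate 7 tyrosinases in all and, leaving out a lectin of cargo transport in the secretory pathway, 3 lectins. The members made up 53.5% to 87.9% of the summed RPKM of the 7 tyrosinases, depending on the library, and lectin-194894 made up 72.7% to 88.4% of that of the 3 lectins outside the first flush. In the first flush libraries lectin-194894 held 26.9% and 38.5% of the lectin sum, and ABL held 69.7% and 58.0%. Reads touched 64.84% to 71.38% of the length of ABL, against at least 99.33% for lectin-194894. RPKM scales to the full length, so shares between these lectins are approximate. The 6 relatives outside the members were taken by their annotation and tested among all 8814 genes.

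ABL (gene 194888), the galactose-binding lectin of the button mushroom, had its highest mean in the first flush, when the XCL-like lectins were low. It had 197 and 96.9 RPKM in the first flush and 44.0 and 83.7 RPKM at pinning, a step of 0.97 (SE 0.55) that was not called (edgeR adjusted p = 0.18). After first flush it had 64.0 and 22.2 RPKM, lower than in the flush (-1.79, SE 0.57, edgeR adjusted p = 0.0296), and the call was lost when only these stages were fitted, without first flush replicate 1 (-1.22) and without after first flush replicate 2 (-1.22). In the second flush it had 34.2 and 55.7 RPKM, below the first flush at -1.59 (SE 0.56, edgeR adjusted p = 0.0499), a call lost in 5 of the 10 alternative settings and in 9 of the 12 fits that left out a library, with values of -2.05 to -1.01 in those 9. Over the libraries ABL correlated at 0.004 with lectin-194894, at 0.163 with lectin-75698 and at 0.667 with tyrosinase-135027.

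Polyphenol oxidase 194055, named in the files with the older name for tyrosinase, had the highest r with tyrosinase-135027 among the relatives (0.855). It had 74.8 and 48.6 RPKM in the first flush and 27.7 and 32.2 RPKM at pinning, not called (0.82, SE 0.35, edgeR adjusted p = 0.0808) but past the threshold in 7 of the 10 alternative settings. It fell after first flush to 23.2 and 12.6 RPKM (-1.81, SE 0.36, edgeR adjusted p = 0.00272) and was lower in the second flush, at 20.3 and 11.0 RPKM, than in the first (-1.89, SE 0.36, edgeR adjusted p = 0.00262).

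Tyrosinase 191532 had 56.1 and 11.2 RPKM after first flush and 7.85 and 7.53 RPKM in the first flush, a difference of 2.10 (SE 0.77) that was not called (edgeR adjusted p = 0.0547) but was past the threshold in DESeq2 (2.11) and in 3 of the 12 fits that left out a library, those without after first flush replicate 2 (2.84) and without either library of the second flush. As with the XCL-like lectins, replicate 1 of that stage was the high one. Tyrosinase 191530 stayed between 0.381 and 2.05 RPKM in all 12 libraries and had no call at the 6 comparisons of stages in edgeR over all libraries, in DESeq2 or in limma. After first flush it was called against the first flush when only these stages were fitted (-1.36) and without either library of the second flush, and in the second flush against after first flush without second flush replicate 2 (2.28). At the second flush against after first flush it had an unadjusted p of 0.0349 in edgeR's quasi-likelihood test, the only comparison of these under 0.05 in edgeR. Tyrosinases 120049 and 120050 have the same best protein match in the files, so reads may be split between them. They were highest at spawning, where gene 120049 had 10.6 and 12.2 RPKM and gene 120050 13.2 and 16.2 RPKM. At pinning, where they had 1.64 and 2.95 RPKM and 5.42 and 5.20 RPKM, both fell (gene 120049 -2.45, SE 0.30, edgeR adjusted p = 4.78e-05, and gene 120050 -1.60, SE 0.25, edgeR adjusted p = 0.000216). Both fell again after first flush, gene 120049 with a log2 change of -2.49 (edgeR adjusted p = 0.000166) and gene 120050 of -1.90 (edgeR adjusted p = 0.00019).

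Counted together, 2 of the 6 relatives were called at pinning, both lower (genes 120049 and 120050), where 29.3% of all tested genes rose and 25.2% fell. At first flush 1 rose (gene 120049, 1.14, edgeR adjusted p = 0.0105, lost without pinning replicate 1 at 0.78), against 25.1% of all tested genes up and 23.6% down. After first flush 4 were called, all lower, against 26.1% up and 26% down, and the median over the 6 was -1.80, against -0.01 over all tested genes. At the second flush, set against after first flush, 1 was called (gene 120050, higher at 0.89, edgeR adjusted p = 0.0485), against 11.3% up and 11% down, and that call was lost in 8 of the 10 alternative settings and in 11 of the 12 fits that left out a library (0.50 to 0.92). After second flush 0 of 6 were called by edgeR, 0 had an unadjusted p under 0.05, and 0 were called by DESeq2 or limma, against 5.29% up and 2.89% down in edgeR. In the second flush against the first 4 were called, all lower, against 23% up and 22.7% down. Gene 120050 was among them at -1.01 and lost its call without first flush replicate 2, at -0.85. The change after second flush minus the change after first flush was called for 3 of the 6 (genes 120049, 120050 and 191532), against 39.4% of all tested genes.

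**Figure D5:**
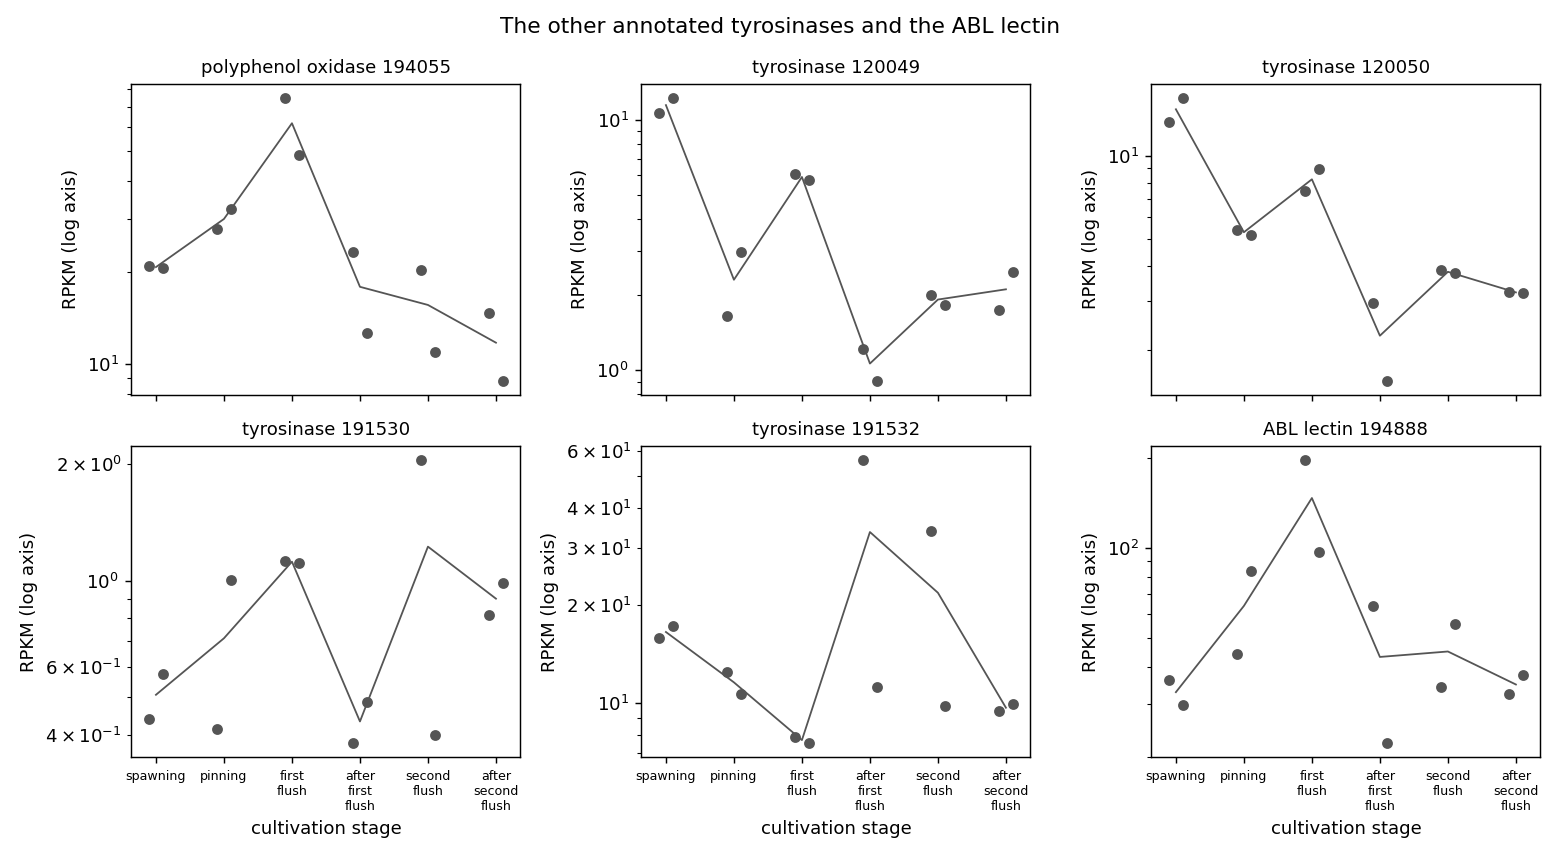
RPKM (log axes) of the other 5 annotated tyrosinases, polyphenol oxidase 194055 among them, and of the ABL lectin in the 12 libraries, by stage; points are libraries and lines join stage means. Polyphenol oxidase 194055 and ABL are highest in the first flush, and tyrosinases 120049 and 120050 at spawning.

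Genes of meiosis, which takes place in the spore-forming cells of the gills, were set beside the members as markers of mushroom tissue in the compost samples. SPO11, which makes the meiotic DNA breaks, had 0.087 to 1.02 RPKM (1 to 11 reads) and was too low to test, and the chromosome axis protein HOP1 (gene 183052) had 0.281 to 1.96 RPKM. Of the other 5, MSH5 had 1.19 to 4.77 RPKM and MLH3 0.786 to 4.45 RPKM, while MSH4 had 20.01 to 58.3 RPKM, the kinase IME2 28.5 to 55.7 RPKM and REC8 12.4 to 41.97 RPKM. The summed level of the 7 meiosis genes lay between 88.9 and 133 RPKM over the 12 libraries, with 125 and 125 RPKM in the first flush and 117 and 120 RPKM at spawning. MSH4 had 49.3 and 48.4 RPKM at spawning and 41.7 and 44.0 RPKM in the first flush. IME2 had 47.7 and 51.7 RPKM at spawning and 36.3 and 33.4 RPKM in the first flush, while REC8 went the other way. Of the 6 tested, 1 rose and 2 fell at pinning, 1 rose at first flush, 1 fell after first flush and 1 fell at the second flush. For all tested genes the shares were 29.3% up and 25.2% down at pinning, 25.1% and 23.6% at first flush, 26.1% and 26% after first flush, and 11.3% and 11% at the second flush. After second flush edgeR, DESeq2 and limma called 0, and 1 had an unadjusted p under 0.05 in edgeR. Between the flushes, the second against the first, 1 rose (IME2, 0.684, edgeR adjusted p = 0.00343) and 1 fell (REC8, -0.874, edgeR adjusted p = 6.23e-05). Over all tested genes edgeR called 5.29% up and 2.89% down after second flush, and 23% and 22.7% between the flushes. The cohesin gene annotated as REC8 (175924) rose at pinning to 24.2 ± 0.284 RPKM, against 12.8 ± 0.534 RPKM at spawning (0.79, SE 0.11, edgeR adjusted p = 0.000109). The 2 that fell at pinning were IME2 (-0.803, edgeR adjusted p = 0.00097) and MLH3 (-1.996, edgeR adjusted p = 0.0122). REC8 rose again at first flush (0.55, edgeR adjusted p = 0.00141), a step at which both tyrosinases stood higher. It fell after first flush to 19.99 ± 1.5 RPKM, against 41.3 ± 0.999 RPKM in the flush (-1.07, SE 0.11, edgeR adjusted p = 1.41e-05). After second flush, where both tyrosinases stood lower again, REC8 was not called (-0.065, SE 0.106, edgeR adjusted p = 0.762). The part of mushroom tissue in the levels of the members was not tested.

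The phenols that mushroom tyrosinases oxidise derive from the shikimate pathway. A list of 17 genes held genes of that pathway and of aromatic amino acid metabolism, and also the gamma-glutamyltransferases 189871 and 204527, which belong to neither. Their calls, all higher, are in the counts: gene 189871 at pinning (0.558) and after first flush (0.553), and gene 204527 after first flush (0.74) and between the flushes (0.581). Of the 17, 6 rose and 2 fell at pinning, 2 rose and 5 fell at first flush, and 7 rose and 3 fell after first flush. At the second flush 3 were called, all higher, after it 2, both lower, and in the second flush against the first 9 rose and 1 fell. Beside these stand shares over all tested genes of 29.3% up and 25.2% down at pinning, 25.1% and 23.6% at first flush, 26.1% and 26% after first flush, 11.3% and 11% at the second flush, 5.29% and 2.89% after it, and 23% and 22.7% between the flushes. The list median was 0.36 at pinning, -0.22 at first flush, 0.50 after first flush and 0.51 between the flushes, where that of all tested genes was 0.05, 0.03, -0.01 and 0.003. The largest called changes were in 4-aminobenzoate hydroxylase (gene 195454), which turns aminobenzoate into aminophenol. It had 12.5 and 4.62 RPKM in the second flush and 1.76 and 2.09 RPKM in the first (2.23, SE 0.56, edgeR adjusted p = 0.00992), a call lost without first flush replicate 1 (2.10) and without second flush replicate 1 (1.40). After second flush it fell to 1.73 and 1.58 RPKM (-2.40, SE 0.57, edgeR adjusted p = 0.0349), a call lost in 2 of the 10 alternative settings and in 9 of the 12 fits that left out a library (-2.42 to -1.56 in those 9).

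Tyrosinase needs copper, and of 14 genes of copper supply and metallothioneins 13 were tested, 5 of the 14 being annotated only as a metallothionein expression activator. Of these 4 rose and 2 fell at pinning, 3 rose and 4 fell at first flush, and 8 rose and 2 fell after first flush (list median 0.78, against -0.01 over all tested genes). Over all tested genes 29.3% rose and 25.2% fell at pinning, 25.1% and 23.6% at first flush, and 26.1% and 26% after first flush, so that the counts at pinning and first flush are close to these shares. At the second flush 2 were called, both lower. After second flush edgeR and limma called 0, DESeq2 called 1, and 1 had an unadjusted p under 0.05 in edgeR. Between the flushes, the second against the first, 4 rose and 1 fell. Over all tested genes edgeR called 11.3% up and 11% down at the second flush, 5.29% and 2.89% after it, and 23% and 22.7% between the flushes. The largest called changes were in gene 79223, which is in the list through a weak KEGG match to a metallothionein expression activator. It had 61.4 and 88.0 RPKM in the first flush and 322 and 346 RPKM at pinning (-2.38, SE 0.45, edgeR adjusted p = 0.00301), and 187 and 324 RPKM in the second flush (1.88 above the first, SE 0.45, edgeR adjusted p = 0.00918). The call between the flushes was lost without first flush replicate 1 (1.63) and without second flush replicate 2 (1.36).

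A list of 22 genes taken as regulators of fruiting held mating type genes, pheromone receptors and a light receptor. It also held genes annotated only as HMG box or homeobox factors, and cyclopropane-fatty-acyl-phospholipid synthases, and these names do not speak of fruiting. Of the 22 genes, 20 were tested. At pinning 3 rose and 5 fell, at first flush 3 rose and 4 fell, and after first flush 4 rose and 2 fell. In each direction and at each of these steps the list had no larger a share than all tested genes, of which 29.3% rose and 25.2% fell at pinning, 25.1% and 23.6% at first flush, and 26.1% and 26% after first flush. At the second flush edgeR, DESeq2 and limma called 0, and 2 had an unadjusted p under 0.05 in edgeR. After second flush 1 fell, and in the second flush against the first 4 rose and 3 fell. The shares of all tested genes called by edgeR were 11.3% up and 11% down at the second flush, 5.29% and 2.89% after it, and 23% and 22.7% between the flushes. A homeobox gene (192433) rose at pinning to 58.2 and 62.8 RPKM, against 10.5 and 9.11 RPKM at spawning (2.49, SE 0.24, edgeR adjusted p = 1.13e-05), a step at which all 4 members stood higher. For tyrosinase-135027 that step was small (0.495, SE 0.294, and 0.068 to 0.827 over the left-out libraries). The later course of gene 192433 differed in part from that of the members. It was not called at first flush (-0.15, edgeR adjusted p = 0.595), where both lectins stood lower and both tyrosinases higher. It rose after first flush to 162 and 133 RPKM (1.18, edgeR adjusted p = 0.000921), where both tyrosinases stood lower and both lectins higher. Cyclopropane-fatty-acyl-phospholipid synthase (191638), an enzyme type needed for fruiting in the inkcap Coprinopsis, fell after first flush to 11.0 and 18.2 RPKM, against 160 and 107 RPKM in the flush (-3.21, SE 0.36, edgeR adjusted p = 0.000111), a step at which both tyrosinases stood lower. After second flush, where they stood lower again, this gene was not called (0.39, SE 0.34, edgeR adjusted p = 0.551).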

How the data were processed

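Deposited tables gave, per library, read counts, RPKM and coverage for each gene. Counts as deposited are uniquely placed reads of each gene, per the file headers, that the authors obtained by mapping before deposition, and they add up to the library total in the header. The RPKM values as deposited are that count over gene length and over that total. Coverage, per the file headers, is the percent of the gene's length touched by reads. The aligner, genome build and strand setting were not given in the sources used here, so levels of overlapping genes are uncertain, and counting unique reads leaves those of close paralogs uncertain, the tyrosinases and lectins included. A gene with no line in a library was taken as 0 reads, because listed counts start at 1. A RefSeq locus tag was found for 9440 of 9502 genes (99.3%) and for 3 of the 4 members. All gene names come from the deposited annotation.

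Counts of all 12 libraries (6 stages of 2) entered 1 model with stage as the only term in edgeR 4.0.16 (R 4.3.3), with TMM scaling and a robust quasi-likelihood test, after removal of genes with low counts (filterByExpr, minimum count 10, minimum total 15). This left 8814 genes, all 4 members among them, and 6 residual degrees of freedom. The call threshold was an adjusted p of 0.05 (Benjamini-Hochberg, adjusted across the 8814). Each SE was taken as the absolute log2 change over the square root of F. The fit was tested on simulated data. Ratios, sums and ranks came from RPKM, correlations from log2(CPM + 1) after TMM scaling, counting intervals from an exact Poisson interval, and figures from matplotlib 3.10.9 with Python 3.11.15.

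The members and lists were chosen with earlier results of these data known. Lists were taken by words in the annotation (the nr name, else the KEGG text): the other tyrosinases and lectins, meiosis, aromatic amino acids (gamma-glutamyltransferases included), copper supply, and regulators of fruiting. From the copper list 3 CTR9 genes, of a transcription complex, were left out, as was any amine oxidase, radical oxidase or superoxide dismutase, and from the lectins 1 of the secretory pathway. Named were all other tyrosinases and lectins, the 5 genes most correlated with each member among 7527 genes with a mean of at least 5 CPM, and from each other list the called gene with the largest rise and the one with the largest fall. Alternatives were DESeq2 1.42.0, limma 3.58.1 on log2 RPKM, other scalings and filters, only the stages compared, the replicate number as a block, and each library left out.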

Additional observations from a re-analysis of the deposited data

Results flagged for a closer look

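The lectins moved in opposite directions after the flushes. The log2 change after second flush minus the change after first flush was -6.319 (SE 1.33) for lectin-75698 and -5.062 (SE 1.005) for lectin-194894. For both genes the libraries after first flush lay above both of the first flush, and those after second flush below both of the second flush, as in 9.39% of all tested genes. After first flush the lower library of lectin-194894 was at 148 RPKM, against 76.0 RPKM in the higher one of the first flush. The difference was not tested, since the members were chosen on these values. Without replicate 1 of after first flush, the library with the high lectin levels, it was -4.33 for lectin-75698 and -3.31 for lectin-194894. The values for the tyrosinases were 0.45 (SE 0.42) for tyrosinase-135027 and 0.006 (SE 0.58) for tyrosinase-191507.

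The same difference was tested for the other named genes in edgeR, where 39.4% of all tested genes were called, so that a call here is common. Among the tyrosinases it was 2.58 for gene 120049 (edgeR adjusted p = 0.00226), 1.608 for gene 120050 (edgeR adjusted p = 0.00733) and -3.3 for gene 191532 (edgeR adjusted p = 0.0458). The call of gene 191532 was lost in 6 of the 10 alternative settings and in 10 of the 12 fits that left out a library (-3.37 to -1.73 in those 10). It was 1.008 for REC8, gene 175924 (edgeR adjusted p = 0.00038), and -3.734 for 4-aminobenzoate hydroxylase, gene 195454 (edgeR adjusted p = 0.00596). It was -2.105 for gene 79223 of the copper list (edgeR adjusted p = 0.0266), -1.432 for the homeobox gene 192433 (edgeR adjusted p = 0.00338) and 3.598 for cyclopropane-fatty-acyl-phospholipid synthase, gene 191638 (edgeR adjusted p = 0.000558).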

How the results depend on the processing

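Of 24 member changes between stages, 21 kept their sign in all 10 alternatives and 12 fits that each left out a library, which assume that the lone library varies like the other stages. The exceptions were the step to the second flush, set against after first flush, of lectin-75698 (-2.02 to 0.78 over the left-out libraries) and lectin-194894 (-0.32 to 2.19), and second flush against first of tyrosinase-191507 (-0.30 to 0.69). The change of lectin-75698 after first flush was 1.58 to 4.38 over the left-out libraries. The after second minus after first flush difference of tyrosinase-191507 (0.006) changed sign in 2 alternatives and in 4 of the left-out fits. The 2 libraries per stage limit all of these, as do the 9 to 37 reads of lectin-75698 in its low stages.

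Counts of called genes within 1.5 times of the reported ones are not repeated, and the cause was not tested for the others. With only the stages compared, 46 genes were called at the second flush against after first flush (1967 in all stages) and 426 after second flush (721), where fewer libraries enter. Leaving out libraries gave 809 to 2032 genes at the second flush against after first flush, with 1226 and 809 without second flush replicates 1 and 2. After second flush it gave 177 to 1188 genes, with 1188 and 1187 without after first flush replicates 1 and 2, 330 and 304 without second flush replicates 1 and 2, and 177 without after second flush replicate 1. Without scaling, 62.3% of calls were higher at pinning (53.7% with TMM), 68.8% at first flush (51.6%) and 30.8% at the second flush against after first flush (50.8%), while the median of all genes moved to 0.182, 0.258 and -0.137.

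For the lists, with only the stages compared, the other tyrosinases and lectins had 4 calls at pinning, 3 at first flush and 0 at the second flush. In that setting the meiosis list had 2 at first flush, 0 at the second flush and 1 for the difference between the after-flush changes. The aromatic list had 13 at pinning, 0 at the second flush and 1 after it, the copper list 10 at pinning, 0 at the second flush and 3 for the difference, and the regulators 0 after second flush. DESeq2 called 2 tyrosinases or lectins at first flush and 0 at the second, 5 aromatic genes at the second flush and 4 after it, and 1 copper gene after second flush. With DESeq2 size factors the tyrosinases and lectins had 0 at the second flush. Without scaling they had 2 at first flush and 0 at the second, the meiosis list had 2 after first flush and the regulators 1 at the second flush. In all 3 limma settings the tyrosinases and lectins had 2 at first flush and 0 at the second, the meiosis list 2 after first flush and the regulators 0 after second flush. With a pseudocount of 0.1 the meiosis list had 0 at the second flush, and with no filter the aromatic list had 1 after second flush.

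Over the left-out libraries, list calls at pinning were 5 to 8 for aromatic and 3 to 7 for copper genes. At first flush they were 0 to 2 for tyrosinases and lectins, 3 to 8 for aromatic genes and 4 to 9 for regulators, and after first flush 1 to 3 for meiosis, 4 to 10 for copper and 3 to 8 for regulators. At the second flush they were 0 to 1 for tyrosinases and lectins, 0 to 1 for meiosis, 2 to 5 for aromatic, 0 to 2 for copper and 0 to 2 for regulators. After second flush they were 0 to 1 for meiosis, 1 to 5 for aromatic, 0 to 1 for copper and 0 to 2 for regulators. In the second flush against the first they were 5 to 10 for aromatic and 2 to 7 for copper genes, and for the difference between the after-flush changes 1 to 2 for meiosis, 3 to 7 for aromatic and 2 to 7 for copper genes.

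Replicate numbers did not pair the libraries: over 15 pairs of stages the deviations of same-numbered libraries correlated at -0.264 to 0.248 (median 0.029), and 1 pair was over 0.1. With the replicate block, 1886 genes were called at the second flush against after first flush and 653 after second flush. With the block the tyrosinases and lectins had 2 calls at first flush and 0 at the second, the meiosis list 3 after first flush and 2 at the second, and the regulators 1 at the second flush.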
